A study of Danio rerio with 12 samples.

Results

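Caspases, BCL2-family proteins, inhibitor of apoptosis (IAP) proteins, inflammasome components and receptor-interacting protein (RIP) kinases were read in bulk RNA-seq of zebrafish hearts after cryoinjury. Members were chosen by gene symbol, by a rule that uses no measured values but was set with earlier results of these data known. They were all annotated genes whose symbol begins like that of a caspase or a bcl2, mcl1, bax, birc or xiap gene. Also taken were the BH3-only genes bbc3, pmaip1, bida and bik, and pycard, gasdermin (gsdm), fadd, apaf1, cflar and ripk1 to ripk4 genes. This gave 51 of 22736 genes, 50 of them protein coding and 1, birc6-as2, an antisense transcript. The 12 libraries fall into 6 conditions of 2 libraries: untouched (UT) ventricles, and injured tissue taken 1 hour or 24 hours after cryoinjury (hpci), in adult myd88+/+ and myd88-/- zebrafish. The mutants carry the loss-of-function allele hu3568 of myd88, the adaptor of Toll-like and interleukin-1 receptors, in all cells. Each library pooled 3 ventricles or 3 injured tissues, and the labels list no sex, batch or day.

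Caspases are proteases that cells hold as inactive precursors. In the intrinsic route, BH3-only proteins free Bax from prosurvival BCL2 proteins, Bax opens the mitochondrial outer membrane, and the Apaf1 platform activates the initiator Casp9; in the extrinsic route, death receptors activate Casp8 through Fadd. Both routes end in executioner caspases, which IAP proteins hold in check, whereas inflammasomes use the adaptor Asc, encoded by pycard, to activate inflammatory caspases such as zebrafish Caspa, and RIP kinases link receptors to NF-kB signalling or to necroptosis.

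Values are read counts that the authors divided by a size factor per library and rounded, given below as normalized counts in the order replicate 1, replicate 2. A gene was called higher or lower where limma gave a Benjamini-Hochberg adjusted p below 0.05 over all 16643 genes tested and a change beyond 1.5-fold, and only called genes are said to have risen or fallen. UT libraries hold the whole ventricle and injured libraries only the injured tissue, so that injury and the part of the ventricle sampled cannot be told apart, and in bulk tissue neither can a change in cell numbers and a change in RNA per cell. The worth of 1 read was estimated at 0.727 to 1.06 normalized counts in 11 libraries, with 3036272 to 4123603 reads on genes, but at 2.54, with 1476827 reads, in replicate 1 of myd88+/+ at 24 hpci, which is therefore the least precise library for low genes. The mutated gene itself was at 63 and 56 normalized counts in myd88+/+ and 32 and 37 in myd88-/- UT. It was at 200 and 171 and 199 and 210 at 1 hpci, and at 79 and 113 and 43 and 66 at 24 hpci. The mutant libraries lay below those of myd88+/+ in UT and at 24 hpci (log2 difference -0.77 and -0.81) and overlapped at 1 hpci. No difference was called (adjusted p = 0.19 in UT, 1.00 at 1 hpci and 0.70 at 24 hpci). A transcript of the mutant allele is still counted, so these values do not check the lesion.

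Of the 51 members, 46 passed the filter of a mean above 5 over the 12 libraries, and 35 of these were called in at least 1 of 9 comparisons between conditions. The matching share of all genes tested was not counted. The other 5 stayed low in every condition: casp6a reached 11 normalized counts at most, birc6-as2 11, caspb 6, birc5b 5 and casp6b.1 3. Of those that passed, birc7, caspbl and casp6b.2 did so through their libraries at 24 hpci alone, so their rise at that time was in part set by the filter. The symbol baxa stands for 2 adjacent genes on chromosome 3, ENSDARG00000020623 and ENSDARG00000089129, and these are kept apart below by their identifiers.

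At 24 hpci inflammasome and caspase genes, the IAP gene birc7, 1 bax gene and the RIP kinase gene ripk3 had risen in both genotypes. In myd88+/+ tissue 22 of 46 members rose and 4 fell relative to UT, that is 47.8% and 8.70% of the members, against 19% and 20.9% of all genes tested. In myd88-/- tissue 19 rose and 2 fell, 41.3% and 4.35%, against 15.6% and 14.5% of all genes. Among those that rose in each genotype were birc7, caspbl and casp6b.2, which their 24 hpci libraries alone brought over the filter. The median log2 fold change of the 46 members was 0.82 in myd88+/+ and 0.65 in myd88-/-, with -0.01 over all genes in each. In both genotypes 19 members were called in the same direction, which is 73.1% of the myd88+/+ calls and 90.5% of the myd88-/- calls, and none in opposite directions. The matching shares over all genes were not computed. The count in myd88+/+ dropped to 15 without replicate 1 or without replicate 2 of UT, and that in myd88-/- to 10 without replicate 2 at 24 hpci; 13 and 10 members, respectively, stayed called whichever of the 4 libraries was left out.

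The zebrafish inflammatory caspase caspa (ENSDARG00000008165, danRer11 chromosome 16, 41993551 to 42004544) went in myd88+/+ from 13 and 6 normalized counts before injury through 22 and 31 at 1 hpci to 409 and 275 at 24 hpci. In myd88-/- the values were 23 and 15, then 14 and 10, then 229 and 295. The 4 libraries at 24 hpci lay above all 8 others, and the genotypes overlapped there. The rise from UT to 24 hpci was 34.0-fold in myd88+/+ (log2 fold change 5.09, SE 0.42, adjusted p = 4.5e-05) and 13.3-fold in myd88-/- (3.73, SE 0.42, adjusted p = 0.000267), on the scale of normalized count + 1 used for all folds here.

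The neighbouring gene on the same strand, pycard (ENSDARG00000040076, chromosome 16, 41984032 to 41990421), 3129 bases from caspa with no annotated gene between them, followed the same course. Its values were 10 and 6, 15 and 20, and 175 and 108 normalized counts in myd88+/+ and 11 and 17, 19 and 12, and 95 and 162 in myd88-/-. It rose 15.8-fold from UT to 24 hpci in myd88+/+ (log2 3.98, SE 0.45, adjusted p = 0.00017) and 8.51-fold in myd88-/- (3.09, SE 0.45, adjusted p = 0.000953). Part of pycard overlaps a gene on the other strand, si:ch211-225p5.8, and reads over several genes had been dropped.

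The caspase b-like gene caspbl (chromosome 1, 58105762 to 58115298) was close to 0 before injury, at 0 and 2 normalized counts in myd88+/+ UT and 0 and 0 in myd88-/- UT, and reached 23 and 21 and 17 and 21 at 24 hpci. At 1 hpci it was at 4 and 5 in myd88+/+ and at 0 and 2 in myd88-/-. It was called higher at 24 hpci than in UT in both genotypes (adjusted p = 0.00332 and 0.00213), with the limit that its 24 hpci libraries alone brought it over the filter. In myd88-/-, where both UT libraries were at 0, it was at least 6.31-fold higher, taking 3 reads per library as the floor. The second inflammatory caspase of zebrafish, caspb, was under the filter.

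**Figure D1:**
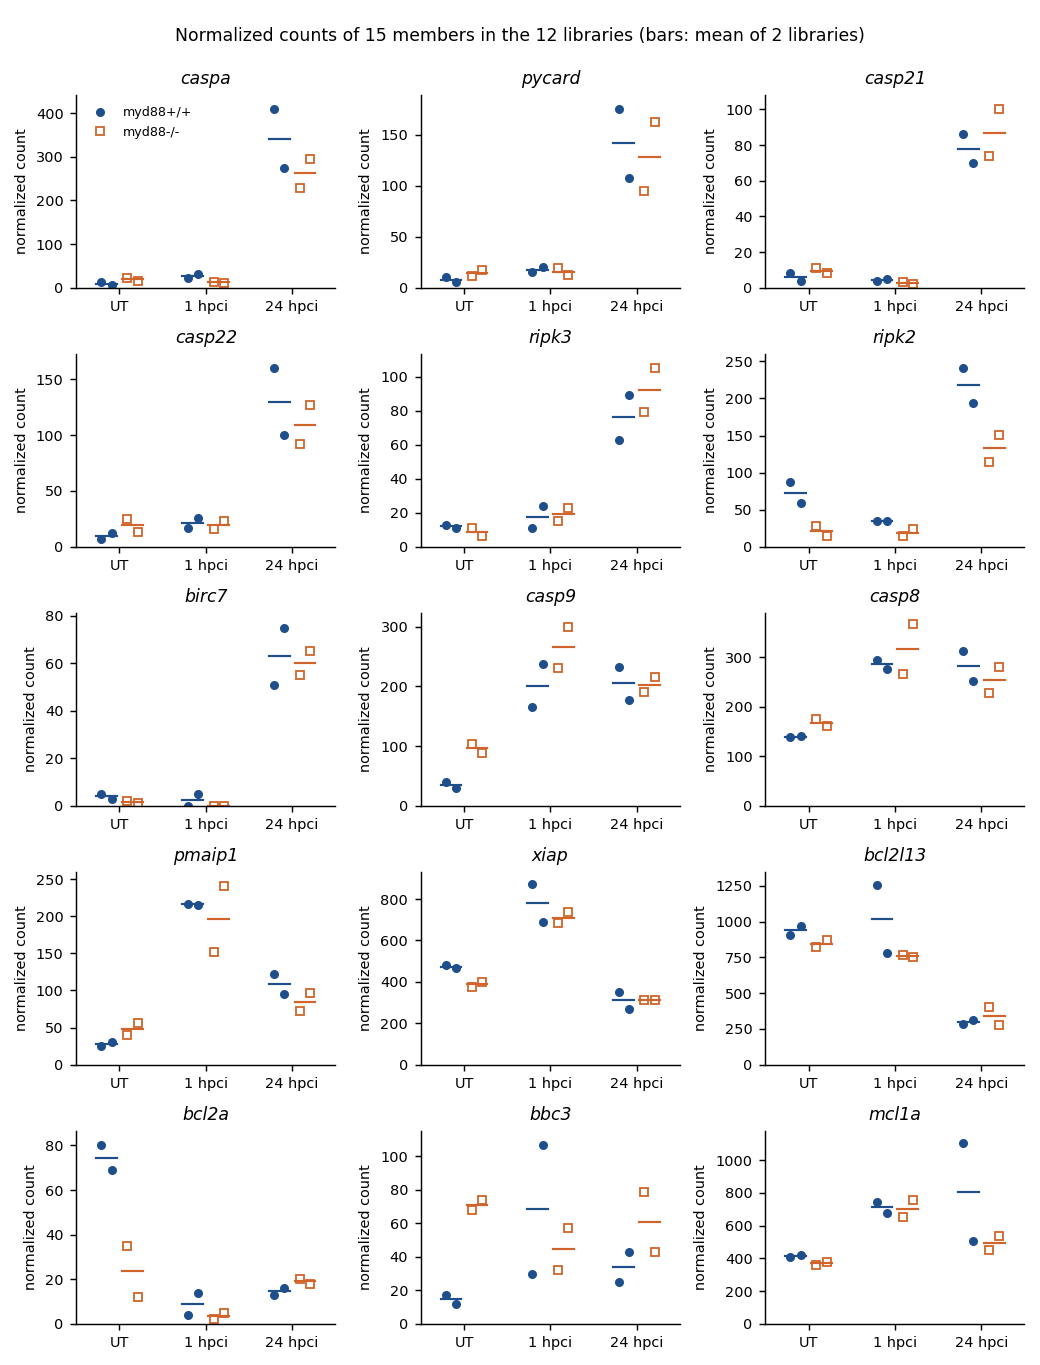
Normalized counts of 15 members (y axis, linear, from 0) in each library of UT, 1 hpci and 24 hpci; circles are myd88+/+ libraries, open squares myd88-/- libraries and short bars the mean of 2 libraries. The 4 libraries at 24 hpci lie at 229 to 409 for caspa and at 51 to 75 for birc7, above all other libraries, whereas casp9 and pmaip1 are already high at 1 hpci.

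A pair of fish caspases with no role assigned here, casp21 and casp22, moved late as well. For casp21 the values were 8 and 4 in UT, 4 and 5 at 1 hpci and 86 and 70 at 24 hpci in myd88+/+, and 11 and 8, 3 and 2, and 74 and 100 in myd88-/-. It rose 11.7-fold and 8.37-fold from UT to 24 hpci (adjusted p = 0.000364 and 0.00119). Its counterpart casp22 went from 7 and 12 through 17 and 26 to 160 and 100 in myd88+/+, and from 25 and 13 through 16 and 23 to 92 and 127 in myd88-/-, 12.5-fold and 5.72-fold higher than UT at 24 hpci (adjusted p = 0.000265 and 0.00261). The gene overlaps nono on the same strand, so that reads shared by both had been dropped. Another such caspase, casp20, was not called against UT but rose between 1 and 24 hpci, 3.30-fold in myd88+/+ (adjusted p = 0.0285) and 2.92-fold in myd88-/- (adjusted p = 0.0442). In myd88+/+ its log2 fold change went from 1.72 to 0.66 without replicate 1 at 1 hpci (adjusted p = 0.149), and the call was also lost without either library at 24 hpci. In myd88-/- it was lost with any 1 of the 4 libraries left out (adjusted p = 0.113 to 0.173) and with no filter on low values (0.0505).

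Among executioner caspases, casp3a, casp3b and casp6b.2 rose by 24 hpci in both genotypes. The widely expressed casp3a went from 188 and 175 normalized counts in UT to 495 and 476 in myd88+/+, 2.67-fold (adjusted p = 0.000857), and from 245 and 222 to 459 and 541 in myd88-/-, 2.13-fold (adjusted p = 0.00459). Its paralogue casp3b rose 2.27-fold and 2.39-fold (adjusted p = 0.0161 and 0.0154). In myd88+/+ the casp3b call was lost without either UT library and without replicate 2 at 24 hpci. In myd88-/- it was lost without replicate 1 of UT and without either library at 24 hpci. The casp3a call in myd88-/- was lost without replicate 2 at 24 hpci. The low gene casp6b.2 was at 1 and 2, 0 and 1, and 8 and 20 in myd88+/+, where it rose from UT to 24 hpci (adjusted p = 0.0355), and at 0 and 2, 0 and 0, and 12 and 31 in myd88-/- (adjusted p = 0.00941 against UT); its call in myd88+/+ was lost with a pseudocount of 0.5 (adjusted p = 0.0623). It lies in a row of casp6 genes on chromosome 3 with casp6a and casp6b.1, both under the filter. Its own 24 hpci libraries alone had brought casp6b.2 over the filter. In myd88+/+ the casp6b.2 call against UT was also lost without either UT library and without replicate 2 at 24 hpci. With only the libraries compared it was lost there too (adjusted p = 0.0504). In myd88-/- it was lost without replicate 1 of UT and without replicate 2 at 24 hpci.

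Among the genes for membrane pores, baxa ENSDARG00000089129 rose and its neighbour ENSDARG00000020623, 2688 bases away, was not called at 24 hpci. The former was at 8 and 14, 12 and 16, and 66 and 80 normalized counts in myd88+/+ and at 7 and 9, 8 and 8, and 60 and 81 in myd88-/-, with rises of 6.34-fold and 7.91-fold from UT to 24 hpci (adjusted p = 0.000866 and 0.000734). The latter was at 310 to 464 in all myd88+/+ libraries. Apart from these, baxb rose 1.93-fold in myd88+/+ (adjusted p = 0.0132). The gene gsdmeb, whose product forms plasma membrane pores after caspase cleavage, rose 1.85-fold and 1.82-fold (adjusted p = 0.0154 and 0.0217), while gsdmea was not called anywhere. The baxb call was lost without either UT library and without replicate 1 at 24 hpci, the shallow library. In myd88+/+ the gsdmeb call was lost without replicate 1 of UT and without replicate 2 at 24 hpci. With only the libraries compared it was lost there too (adjusted p = 0.0682). In myd88-/- the gsdmeb call was lost with any 1 of the 4 libraries left out.

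The RIP kinase genes split evenly. The necroptosis kinase gene ripk3 was at 13 and 11, 11 and 24, and 63 and 89 in myd88+/+ and at 11 and 6, 15 and 23, and 79 and 105 in myd88-/-, and rose from UT to 24 hpci (log2 fold change 2.55 and 3.33, adjusted p = 0.00216 and 0.000812). In addition ripk2, the kinase that acts downstream of NOD receptors, rose 2.99-fold in myd88+/+ (adjusted p = 0.00936) and 6.34-fold in myd88-/- (adjusted p = 0.000936), from UT levels that differed between the genotypes as described below. The ripk2 call in myd88+/+ was lost without replicate 2 of UT and without replicate 1 at 24 hpci, the shallow library. Neither ripk1l nor ripk4 was called in any comparison.

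IAP genes went both ways. The livin gene birc7 was at 5 and 3, 0 and 5, and 51 and 75 normalized counts in myd88+/+ and at 2 and 1, 0 and 0, and 55 and 65 in myd88-/-. It rose from UT to 24 hpci in both genotypes, 12.8-fold in myd88+/+ (adjusted p = 0.00435) and from UT values too low for a fold in myd88-/- (adjusted p = 0.00183), with the limit that its 24 hpci libraries alone brought it over the filter. In myd88-/- it was at least 21.9-fold higher at 24 than at 1 hpci. The survivin gene birc5a, which also serves chromosome segregation in dividing cells, rose 4.28-fold and 6.17-fold (adjusted p = 0.0252 and 0.0118), with 38 and 44 at 24 hpci in myd88+/+ and 44 and 54 in myd88-/-. Its call was lost with any 1 of the 4 libraries left out in myd88+/+ (adjusted p = 0.0642 to 0.135) and without replicate 2 of UT or of 24 hpci in myd88-/- (adjusted p = 0.103 and 0.0936).

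In the other direction, birc6, a very large ubiquitin-conjugating IAP, fell in myd88+/+ from 1669 and 1689 in UT through 942 and 1082 at 1 hpci to 812 and 1106 at 24 hpci (log2 fold change -0.82, SE 0.22, adjusted p = 0.0144). The birc6 call was lost without either UT library and without replicate 1 at 24 hpci, the shallow library (log2 -0.60). With only the libraries compared it was lost too (adjusted p = 0.0867). In myd88-/- its values were 1392 and 1051, 1011 and 1005, and 1149 and 833, which overlap (adjusted p = 0.33 for 24 hpci against UT). Counting by strand was not stated, so reads of birc6 and of its antisense transcript birc6-as2 may not have been separated, although the latter was counted at 11 at most.

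Genes of prosurvival BCL2 proteins had no common direction at 24 hpci. In myd88+/+ mcl1a rose 1.81-fold (adjusted p = 0.0378), with 410 and 420 in UT and 1107 and 508 at 24 hpci, and was not called without replicate 1 at 24 hpci, the shallow library (adjusted p = 0.21), or without either UT library. In myd88-/- bcl2b fell (log2 fold change -1.89, SE 0.46, adjusted p = 0.0114), a call that was lost with any 1 of the 4 libraries left out (adjusted p = 0.051 to 0.0741). The largest decrease among members of higher level was that of bcl2l13, which encodes a mitochondrial outer membrane protein with a role in mitophagy in mammals. It was at 908 and 971, 1258 and 780, and 284 and 313 normalized counts in myd88+/+ and at 824 and 869, 765 and 751, and 404 and 277 in myd88-/-, with no overlap between 24 hpci and the earlier conditions. It fell from UT to 24 hpci to 0.318 of the UT level in myd88+/+ (log2 -1.65, SE 0.24, adjusted p = 0.000577) and to 0.396 in myd88-/- (-1.34, SE 0.24, adjusted p = 0.00248).

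**Figure D2:**
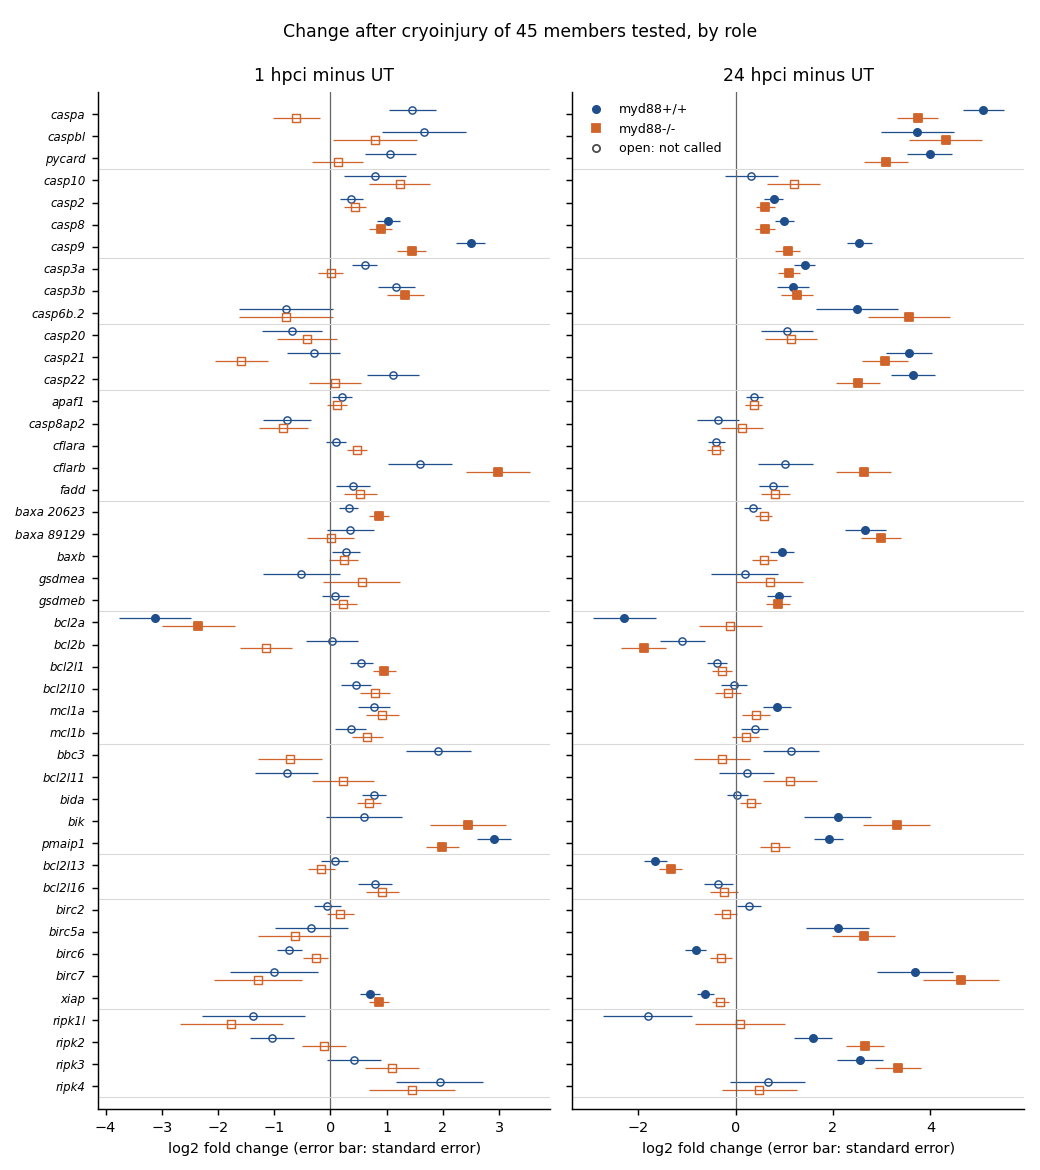
Log2 fold change (x axis, with its standard error) of 45 tested members at 1 hpci and at 24 hpci relative to UT; rows are members ordered by role, grey lines separate roles, circles are myd88+/+, squares myd88-/-, and filled symbols are called. Of those drawn, 21 are called higher at 24 hpci in myd88+/+ and 19 in myd88-/-, and 4 and 9 at 1 hpci. Fitted values of caspbl in myd88-/- rest on UT libraries at 0 and are no bound, and at 1 hpci in myd88-/- those of caspbl, birc7 and casp6b.2 have both groups under the floor of 3 reads.

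Markers of macrophages and of cycling cells moved with these changes. Of 8 macrophage markers 6 rose by 24 hpci in myd88+/+, where their summed normalized count went from 1218 to 1249 in UT to 3059 to 5366, and 7 rose and 1 fell in myd88-/-, where the sum went from 1358 to 1391 to 2977 to 3366. In myd88+/+ at 24 hpci replicate 1, the shallow library, was above replicate 2 not only in this sum, caspa and pycard but also in the summed markers of cardiomyocytes (15429 against 7606), epicardium (2734 against 1482) and red blood cells (5661 against 3548). Of 7 cycling-cell markers 4 rose in each genotype, with sums of 529 to 788 in UT and 1641 to 1694 at 24 hpci in myd88+/+ and of 532 to 627 and 1751 to 1770 in myd88-/-. The sum of 6 neutrophil markers was 580 to 723 in UT and 1361 to 1886 at 24 hpci in myd88+/+ and 582 to 637 and 1129 to 1230 in myd88-/-, with 2 and 1 of 6 called higher. None of these markers was at 0 in all libraries of a condition, and cardiomyocyte markers were abundant throughout, with sums of 6831 to 15816 and the lowest values in 3 of the 4 libraries at 24 hpci. Markers of other cells changed as well. At 24 hpci the epicardial marker wt1b was called higher than UT in both genotypes, and tcf21 and tbx18 lower. The endothelial markers cdh5 and kdrl were called lower in both genotypes, and nfatc1 in myd88-/- alone. Of the lymphocyte markers tested, cd79a was called higher in myd88+/+ alone. The part of these cells in the changes above was not tested.

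**Figure D3:**
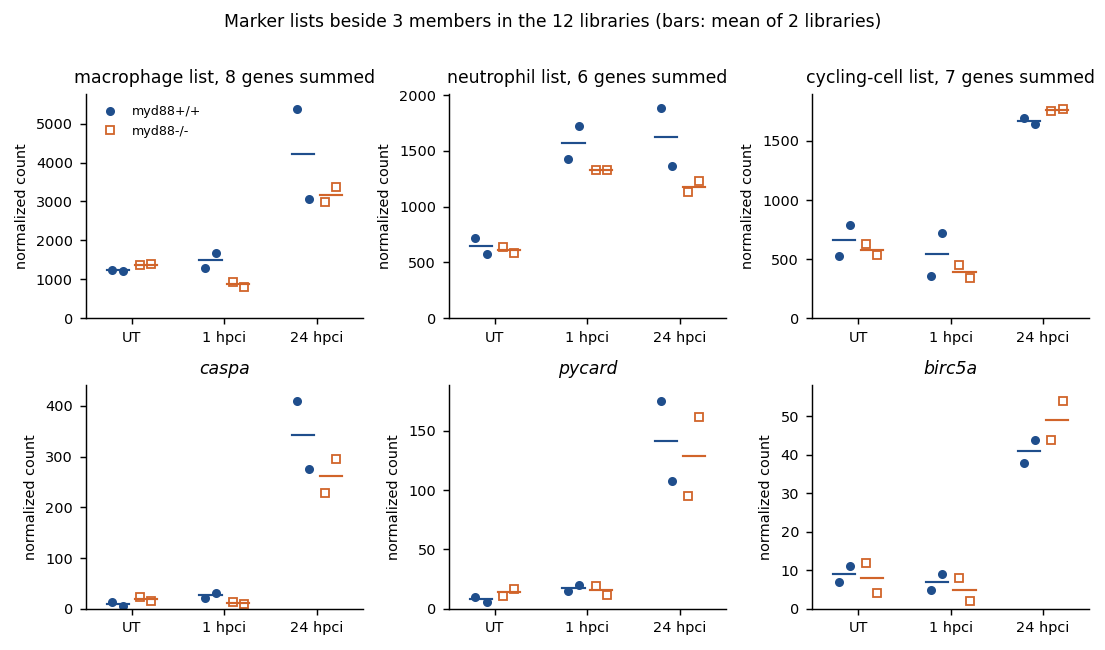
Summed normalized counts of macrophage, neutrophil and cycling-cell markers (top) and normalized counts of caspa, pycard and birc5a (bottom) in each library; circles are myd88+/+, open squares myd88-/-, bars the mean of 2 libraries. At 24 hpci the macrophage sum of 2977 to 5366 and the cycling-cell sum of 1641 to 1770 lie above all other libraries, as do the values of the 3 members.

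At 1 hpci fewer members had moved: the BH3-only gene pmaip1, both initiators casp9 and casp8 and the caspase inhibitor xiap were higher, and the prosurvival gene bcl2a was lower, in both genotypes. In myd88+/+ tissue 4 members rose and 1 fell (8.70% and 2.17%, against 5.01% and 3.73% of all genes), and in myd88-/- tissue 9 rose and 1 fell (19.6% and 2.17%, against 5.9% and 4.55%). The 5 myd88+/+ calls, casp9, pmaip1, casp8, xiap and bcl2a, were all called in myd88-/- too. They make up 50% of the calls there, a share not computed for all genes. These counts were fragile: that of myd88+/+ was 2 without either UT library (casp9 and pmaip1 stayed called) and 0 when only the libraries compared were fitted, with adjusted p of 0.0514 for pmaip1 and 0.0549 for casp9. That of myd88-/- was 3 and 2 without replicate 1 or 2 of UT and 1, pmaip1, without replicate 2 at 1 hpci.

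Markers of blood cells moved at this time too. Of 4 thrombocyte markers 3, itga2b, gp1bb and mpl, rose at 1 hpci in both genotypes. The other, fn1b, was not called at 1 hpci and made up most of their sum in UT, with 3424 and 2957 normalized counts in myd88+/+. At 24 hpci fn1b was called lower than UT in myd88+/+, whereas itga2b and gp1bb were still called higher in both genotypes. In myd88+/+ the summed normalized count of all 4 went from 3424 to 3849 in UT to 5257 to 7408 at 1 hpci. It was 2058 to 2533 at 24 hpci. In myd88-/- it went from 2759 to 3069 to 6372 to 6717 and 2043 to 2846. Of 8 red blood cell markers, slc4a1a and epb41b rose at 1 hpci in both genotypes and alas2 in myd88-/- alone. No globin gene was called in any comparison. For example, the globin gene hbaa1 was at 323 and 276, 384 and 331, and 713 and 286 in myd88+/+. In myd88-/- it was at 271 and 275, 337 and 382, and 247 and 282. Duplicate reads had been removed, which limits highly expressed short genes. Flat globin values therefore do not show that red blood cells were unchanged. The sums of all 8 were 3392 to 3650 in UT, 6412 to 6717 at 1 hpci and 3548 to 5661 at 24 hpci in myd88+/+. In myd88-/- the sums were 2524 to 2730, 5843 to 7481 and 3142 to 3447. Both sums were thus highest at 1 hpci, as were pmaip1, xiap and bcl2l1. The part of these cells in the changes at 1 hpci was not tested.

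The BH3-only gene pmaip1, which encodes Noxa, was at 25 and 31 normalized counts in myd88+/+ UT, 217 and 215 at 1 hpci and 122 and 95 at 24 hpci, and at 40 and 56, 152 and 241, and 72 and 97 in myd88-/-. In both genotypes the 3 conditions did not overlap. It rose 7.52-fold at 1 hpci in myd88+/+ (log2 2.91, SE 0.30, adjusted p = 0.000525) and 3.98-fold in myd88-/- (1.99, SE 0.30, adjusted p = 0.00257), and fell again between 1 and 24 hpci to 0.501 and 0.440 of the level at 1 hpci (adjusted p = 0.0248 and 0.0111). At 24 hpci it was still called above UT in myd88+/+ (3.77-fold, adjusted p = 0.000856) and not in myd88-/- (1.75-fold, adjusted p = 0.063), and this difference between genotypes was itself not called (log2 -1.11, adjusted p = 0.515).

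The initiator casp9 was at 39 and 30 in UT, 165 and 237 at 1 hpci and 233 and 177 at 24 hpci in myd88+/+, a rise of 5.64-fold by 1 hpci (adjusted p = 0.000525) with no further call between 1 and 24 hpci. In myd88-/- it started higher, at 103 and 89, and reached 231 and 300 and then 190 and 216, a rise of 2.73-fold by 1 hpci (adjusted p = 0.006). The initiator of the extrinsic route, casp8, went from 138 and 141 to 295 and 276 and then 312 and 252 in myd88+/+, and from 174 and 160 to 266 and 366 and then 228 and 279 in myd88-/-. Its rise at 1 hpci was 2.04-fold and 1.86-fold (adjusted p = 0.0137 and 0.0199) and was held at 24 hpci (adjusted p = 0.00356 and 0.0488), and in myd88-/- the call at 24 hpci was lost with any 1 of the 4 libraries left out. The other initiator tested that was called, casp2, rose only by 24 hpci, 1.72-fold and 1.52-fold (adjusted p = 0.0106 and 0.0398), and casp10 was not called. The casp2 call in myd88-/- was lost with any 1 of the 4 libraries left out (log2 0.525 to 0.686). It was also lost there with no filter (adjusted p = 0.0513) and with a replicate block (adjusted p = 0.0518). In myd88+/+ it was lost without either UT library and with only the libraries compared (adjusted p = 0.0502).

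The direct caspase inhibitor xiap rose at 1 hpci and fell from there to 24 hpci. Its values were 480 and 468, 873 and 688, and 350 and 271 normalized counts in myd88+/+ and 376 and 401, 682 and 738, and 311 and 314 in myd88-/-, with no overlap between the 3 conditions of a genotype. The rise at 1 hpci was 1.63-fold and 1.82-fold (adjusted p = 0.0364 and 0.013), and the fall from 1 to 24 hpci had log2 fold changes of -1.33 (SE 0.18, adjusted p = 0.000479) and -1.18 (SE 0.18, adjusted p = 0.000809). Against UT the level at 24 hpci was called lower in myd88+/+ (log2 -0.62, adjusted p = 0.0194) and not in myd88-/- (-0.31, adjusted p = 0.21). Each of the calls against UT was lost on leaving out any 1 of 3 of the 4 libraries, whereas the falls from 1 to 24 hpci stayed called. The gene overlaps nxt2 on the other strand.

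The prosurvival gene bcl2a fell early. In myd88+/+ it was at 80 and 69 in UT, 4 and 14 at 1 hpci and 13 and 16 at 24 hpci, and was called lower at both times (log2 -3.12, SE 0.65, adjusted p = 0.0162, and -2.29, SE 0.65, adjusted p = 0.0175). In myd88-/- it was at 35 and 12, 2 and 5, and 20 and 18, lower at 1 hpci (log2 -2.35, adjusted p = 0.0437) and not called at 24 hpci against UT, where the values overlap. The call at 1 hpci was lost with any 1 of the 4 libraries left out in myd88-/-, and in myd88+/+ with any but replicate 2 at 1 hpci left out. In myd88+/+ the call at 24 hpci was lost without either UT library and without replicate 1 at 24 hpci, the shallow library.

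In myd88-/- tissue, 5 more members rose at 1 hpci: cflarb (7.91-fold, adjusted p = 0.00844), bik (from 1 and 1 to 6 and 16 normalized counts, adjusted p = 0.046), casp3b (2.52-fold, adjusted p = 0.0274), bcl2l1 (1.94-fold, adjusted p = 0.0156) and baxa ENSDARG00000020623 (1.81-fold, adjusted p = 0.0123). They encode a Casp8 inhibitor of the c-FLIP type, a BH3-only protein, an executioner caspase, the prosurvival protein Bcl-xL and a Bax. In myd88+/+ the same 5 had fitted fold changes of 3.02, 1.51, 2.25, 1.46 and 1.25 and were not called, and no interaction of genotype and injury was called for any of them, so the 2 genotypes were not shown to differ. At 24 hpci bik rose in both genotypes, to 23 and 15 in myd88+/+ and 12 and 29 in myd88-/- (adjusted p = 0.0315 and 0.00509), and cflarb was called in myd88-/- alone (6.19-fold, adjusted p = 0.00604, and 2.03-fold, adjusted p = 0.168, in myd88+/+). In UT cflarb was at 2, under the floor of 3 reads, and 11 in myd88-/- and at 15 and 15 in myd88+/+. At 1 hpci it was at 49 and 44 and at 52 and 43. With 1 library left out its log2 fold change in myd88-/- was 1.98 to 3.98 at 1 hpci and 1.63 to 3.63 at 24 hpci. With only the libraries compared, its call at 1 hpci was lost (adjusted p = 0.072). For bik both myd88-/- UT libraries were under the floor of 3 reads. The bik call at 1 hpci was lost with a pseudocount of 5 (adjusted p = 0.0858), with no filter on low values (0.0584) and with only the libraries compared (0.0623). With 1 library left out its log2 fold change at 1 hpci was 1.81 to 3.09.

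Between 1 and 24 hpci, both of which are injured tissue, 14 members rose and 6 fell in myd88+/+, 30.4% and 13% of members against 16.9% and 18% of all genes. In myd88-/- 14 rose and 7 fell, 30.4% and 15.2% against 18.1% and 16.3%. In the same direction 17 were called in both genotypes, 85% and 81% of the calls of each, shares not computed for all genes. With only the libraries compared in the fit, the myd88+/+ count was 9. The late genes above made up most of the rises: caspa (12.4-fold and 20.3-fold, adjusted p = 0.000228 and 8.89e-05), casp21 (14.3-fold and 25.1-fold, adjusted p = 0.000291 and 0.000104) and pycard (7.56-fold and 7.76-fold, adjusted p = 0.000969 and 0.000851) were called in both, and casp6b.2 rose in myd88+/+ (adjusted p = 0.012) and was at least 7.83-fold higher in myd88-/-.

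Falls between 1 and 24 hpci in both genotypes were those of bcl2l13, xiap, pmaip1, bcl2l1 and bcl2l16. For bcl2l1 the values were 455 and 498, 669 and 727, and 404 and 332 in myd88+/+ and 314 and 346, 522 and 788, and 277 and 262 in myd88-/-, with log2 fold changes from 1 to 24 hpci of -0.93 (adjusted p = 0.0061) and -1.25 (adjusted p = 0.00124). For bcl2l16 they were 135 and 152, 310 and 200, and 150 and 83, and 141 and 151, 297 and 259, and 111 and 137, with -1.15 (adjusted p = 0.0121) and -1.16 (adjusted p = 0.0113). Both genes were thus highest at 1 hpci in each genotype. In 1 genotype alone, bida fell in myd88+/+, bcl2l10 and cflara fell in myd88-/- and bcl2a rose in myd88-/-, with no interaction called. Members tested and called in no comparison were apaf1, bbc3, bcl2l11, birc2, casp10, casp8ap2, fadd, gsdmea, mcl1b, ripk1l and ripk4; apaf1, for example, was at 282 to 435 normalized counts in all 12 libraries.

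Differences between genotypes within a condition were few. In UT ventricles 2 of 46 members were called, against 2.08% of all genes. One was casp9, higher in myd88-/- (103 and 89 against 39 and 30; log2 difference 1.46, SE 0.26, 95% interval 0.89 to 2.02, adjusted p = 0.0213). The other was ripk2, lower in myd88-/- (28 and 14 against 87 and 59; log2 difference -1.80, SE 0.39, 95% interval -2.66 to -0.94, adjusted p = 0.0446). Neither call held when any 1 of the 4 UT libraries was left out, with 0 members called each time. The call of ripk2 was also lost with no filter on low values (adjusted p = 0.0533), and with only the UT libraries fitted neither was called (adjusted p = 0.0575 for casp9 and 0.0936 for ripk2).

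At 1 and at 24 hpci limma called 0 members between genotypes, against 0.12% and 0.03% of all genes. At an unadjusted p below 0.05 there were 2 and 3 of 46 members, against 8.84% and 5.13% of all genes. The members with the smallest p at 1 hpci were caspa, with 22 and 31 in myd88+/+ and 14 and 10 in myd88-/- (log2 difference -1.08, 95% interval -2.01 to -0.15, adjusted p = 0.469), ripk2, with 35 and 34 and 14 and 24 (-0.87, interval -1.74 to -0.01, adjusted p = 0.552), caspbl (adjusted p = 0.565) and baxa ENSDARG00000089129 (-0.72, interval -1.65 to 0.20, adjusted p = 0.722). Macrophage markers stood beside these values: their sum at 1 hpci was 1302 to 1680 in myd88+/+ and 808 to 930 in myd88-/-, with 0 of 8 called between genotypes (5 at an unadjusted p below 0.05) and 5 of 8 called lower than UT in myd88-/-. Their part was not tested.

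At 24 hpci the smallest p belonged to birc2, which encodes a ubiquitin ligase IAP, with 1462 and 846 normalized counts in myd88+/+ and 668 and 712 in myd88-/- (log2 difference -0.69, 95% interval -1.22 to -0.15, adjusted p = 0.704). It was followed by cflara, with 373 and 334 and 252 and 271 (-0.43, interval -0.81 to -0.05), bcl2l10, with 749 and 383 and 338 and 372 (-0.59, interval -1.18 to -0.00), and bcl2l1 (-0.44, interval -0.90 to 0.01), each with an adjusted p of 0.704. Without the shallow replicate 1 of myd88+/+ the differences were smaller. They were then -0.29 for birc2, -0.35 for cflara, -0.11 for bcl2l10 and -0.30 for bcl2l1. For caspa and pycard at this time the differences were -0.37 (interval -1.30 to 0.56) and -0.15 (interval -1.15 to 0.86), so a level 2-fold lower in myd88-/- was within both intervals. Without replicate 2 of myd88+/+ at 24 hpci, the shallow library was the only myd88+/+ sample. The log2 differences were then -1.08 for birc2 and for bcl2l10, -1.16 for mcl1a, -1.06 for mcl1b and 2.67 for ripk1l. How many of all genes differed in this fit was not counted.

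**Figure D4:**
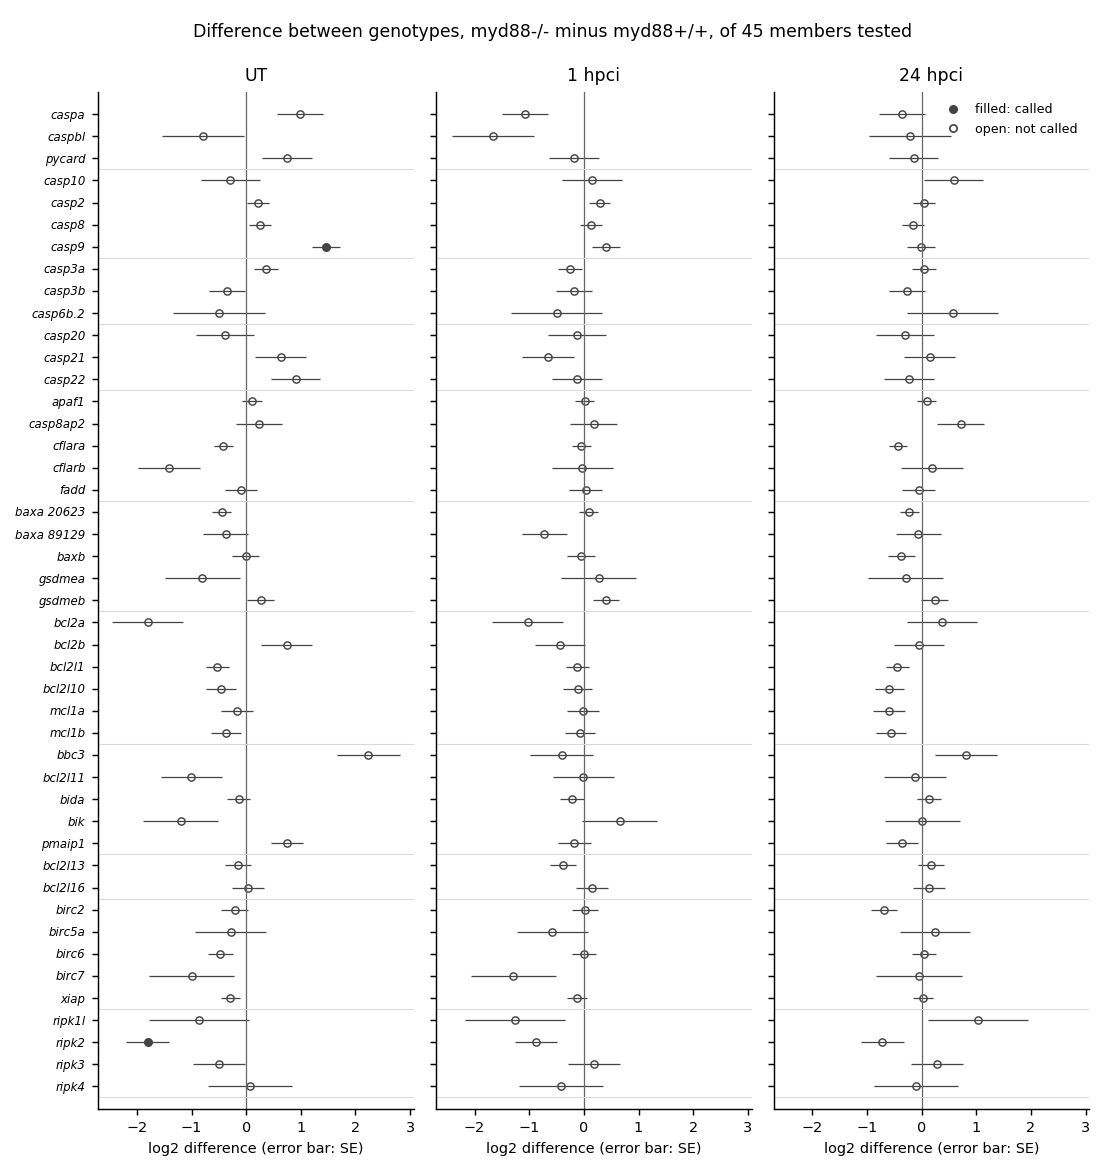
Log2 difference between genotypes, myd88-/- minus myd88+/+ (x axis, with its standard error), of 45 tested members in the 3 panels UT, 1 hpci and 24 hpci; filled symbols are called. Called are casp9 (1.46) and ripk2 (-1.80) in UT ventricles and no member after injury.

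Whether the change after injury differed between genotypes was tested as an interaction. Limma called 0 members for 1 hpci against UT, 0 for 24 hpci against UT and 0 for 24 against 1 hpci, with 0.138%, 0.0481% and 0.018% of all genes called. At an unadjusted p below 0.05 there were 3, 4 and 0 members, against 8.56%, 8.38% and 5.95% of all genes. For casp9, the rise from UT to 24 hpci was 5.80-fold in myd88+/+ and 2.10-fold in myd88-/-. The interaction was -1.46 (SE 0.36, adjusted p = 0.249), so its rises were not shown to differ. Its levels at 24 hpci differed by -0.00 (interval -0.57 to 0.56). The fitted difference thus came from the UT levels, where the casp9 call was lost with any UT library left out. Without replicate 2 of myd88+/+ at 24 hpci, the interactions against UT were -1.66 for casp9, -0.87 for birc2 and -0.99 for mcl1a. Against 1 hpci they were -0.96 for bcl2l10, -1.10 for birc2, -1.14 for mcl1a, -0.99 for mcl1b and 3.93 for ripk1l. Without replicate 1 of myd88+/+ at 1 hpci, the interaction of bbc3 against UT was -3.54. Each of these fits left 1 library in a condition.

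Genes of these pathways outside the rule were read from a list of death receptors, ligands, cytokines, NF-kB factors and mitochondrial factors, of which 43 were tested. In myd88+/+ 6 rose and 3 fell at 1 hpci and 13 rose and 7 fell at 24 hpci, and in myd88-/- 7 rose and 4 fell and 6 rose and 6 fell. In percent of the 43, that is 14% and 6.98% at 1 hpci and 30.2% and 16.3% at 24 hpci in myd88+/+, against 5.01%, 3.73%, 19% and 20.9% of all genes. In myd88-/- the shares were 16.3%, 9.3%, 14% and 14%, against 5.9%, 4.55%, 15.6% and 14.5% of all genes. At 24 hpci in myd88-/- the list thus lay near the share of all genes. The interleukin-1 beta gene il1b, whose product inflammatory caspases process, went from 10 and 3 in UT through 68 and 81 to 119 and 123 in myd88+/+ and was called higher at both times (log2 3.50 and 4.20, adjusted p = 0.0123 and 0.00103). In myd88-/- it was at 47 and 9, 37 and 52, and 51 and 88 and was not called (adjusted p = 0.379 and 0.0917). The death ligand gene tnfa was at 119 and 78 in myd88+/+ at 24 hpci, after 0 and 0 in UT, and at 8 and 8 in myd88-/- at 24 hpci. Its myd88+/+ libraries at 24 hpci alone brought tnfa over the filter. Its rise there, and its difference from myd88-/-, were thus in part set by the filter. The BH3-only gene badb was called higher in all 4 comparisons with UT, and bnip3, a mitophagy receptor gene, was lower at 24 hpci in both genotypes (log2 -2.59 and -2.97, adjusted p = 0.00102 and 0.000763). Limma called 0 genes of the list between genotypes and 0 for an interaction. At an unadjusted limma p below 0.05 there were 8, 4 and 3 of the 43 between genotypes in UT, at 1 and at 24 hpci. For the interactions there were 6, 6 and 2. Of all genes tested, 16.3%, 8.84% and 5.13% were below that p between genotypes, and 8.56%, 8.38% and 5.95% for the interactions. For il1b and tnfa the interactions of 24 hpci against UT had adjusted p of 0.502 and 0.118.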

How the data were processed

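Bulk RNA was sequenced (single-end reads of 75 bases, stranded libraries) from 12 pools, 2 for each of 6 conditions, grouped by genotype and state as the labels give them. The labels name separate pools and no batch. The authors trimmed reads with Trimmomatic 0.39, aligned them with STAR 2.7.3a to danRer11, annotated by Ensembl release 99, removed duplicate, multimapping, ribosomal and mitochondrial reads with Picard 2.21.7, counted exon reads with featureCounts 1.6.5 without reads over several genes, and normalized with DESeq2 1.26.0. The values they deposited are therefore a score rather than read counts: size-factor-scaled counts in whole numbers, so that tests for read counts were not used. Removing duplicates without molecular identifiers limits highly expressed short genes, and rounding blurs low ones.

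Genes with a mean above 5 entered limma 3.58.1 (R 4.3.3) as log2(value + 1), with 6 condition means, a mean-variance trend and 10.6 total degrees of freedom, followed by Benjamini-Hochberg adjustment over all genes tested. With 2 libraries per condition an exact permutation test cannot go below p = 0.33. Intervals are 95% limma intervals. The worth of 1 read was estimated from the spacing of each library's values, a procedure tested on simulated data, as was the model. Folds against libraries at 0 take 3 reads per library as the floor.

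Members with their values were named by rule: those called with the largest changes in each comparison of myd88+/+, those called between genotypes or else the 4 with the smallest p, and every other called member by name. The members, lists and tests were chosen with earlier results of these data known. Alternatives were other pseudocounts, filters, trimmed mean (TMM) scaling factors, only the libraries compared, a replicate block, no fold threshold and each library left out. Protein and promoter sequences were not analysed here. In addition, 1 member that is counted among those tested and called is not reported here by name or drawn.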

Additional observations from a re-analysis of the deposited data

Results flagged for a closer look

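For 2 members every myd88+/+ library at 1 hpci lay above UT and every myd88-/- library below it. How many of all genes show this pattern was not counted. In the case of caspa the interaction was -2.06 on the log2 scale (SE 0.59, adjusted p = 0.309), with 13 and 6 against 22 and 31 normalized counts in myd88+/+ and 23 and 15 against 14 and 10 in myd88-/-. The Puma gene bbc3 gave -2.64 (SE 0.81, adjusted p = 0.332), with 17 and 12 against 30 and 107 in myd88+/+ and 68 and 74 against 32 and 57 in myd88-/-. Both are limma values that did not pass the adjustment over all genes, and for bbc3 the 2 myd88+/+ libraries at 1 hpci lay far apart.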

How the results depend on the processing

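No member named with a value changed direction under any alternative run for it. With only the libraries compared in the fit, the members called went from 5 to 0 for 1 hpci against UT in myd88+/+, from 20 to 9 for 24 against 1 hpci in myd88+/+ and from 2 to 1 between genotypes in UT, where the 1 was bbc3 (adjusted p = 0.0475) and neither casp9 nor ripk2. With no filter on low values the count between genotypes in UT was 1, casp9. The causes were not tested. The other counts stayed within 1.5 times under the pseudocounts of 0.5 and 5, the filter at a mean of 20, TMM factors and no fold threshold.

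With 1 library left out, the members called ranged from 2 to 6 (1 hpci against UT), 15 to 24 (24 hpci against UT) and 14 to 21 (24 against 1 hpci) in myd88+/+ and from 1 to 9, 10 to 16 and 16 to 18 in myd88-/-. Comparing genotypes, the range was 0 to 5 at 24 hpci and 0 to 0 both in UT and at 1 hpci, and for the interactions it went from 0 to 1 (1 hpci against UT), 0 to 3 (24 hpci against UT) and 0 to 5 (24 against 1 hpci). Where a condition kept 1 library, that library was taken to vary like the others. How many of all genes were called in these fits was not counted.

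Replicate numbers name different pools, and the labels tie no numbers together. Same-numbered libraries of the genotypes deviated with correlations of -0.02 in UT, -0.13 at 1 hpci and -0.35 at 24 hpci. Within myd88-/- the correlations were 0.16 (UT with 1 hpci), 0.23 (UT with 24 hpci) and 0.28 (1 with 24 hpci), and within myd88+/+ 0.01, 0.05 and 0.28, and with 2 numbers these values do not settle whether numbers pair libraries within a genotype. With a replicate block, 6, 26 and 21 members were called in the 3 comparisons within myd88+/+, 9, 19 and 21 within myd88-/- and 1, 0 and 0 between genotypes. A crossed pairing, added after seeing the data, called 0 members between genotypes at 1 and 24 hpci. Depth limits the low members, above all in replicate 1 of myd88+/+ at 24 hpci, where 3 reads stand for 7.61 normalized counts.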
